A study of Mus musculus with 30 samples.

Results

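CD206hi MHCIIlo and CD206pos MHCIIhi macrophages are a pair of cell populations sorted from the same mammary tumours of mice, and the account below compares their RNA across all genes. The members are 10 of the 30 libraries of the series, 5 per population, chosen by the population named in the data columns and paired by the tumour number. Every library came from FVB/N-Tg(MMTVPyVT)634Mul/J mice, in which the MMTV promoter drives polyoma middle T antigen in the mammary epithelium, so both groups share strain, transgene and tumour type. The tumours were mammary adenocarcinomas of 750 mm3, numbered 5, 6, 8, 10 and 11, each from its own mouse (n = 5 per group). Both gates required CD45 and F4/80, which mark leukocytes and macrophages, and CD206. The labels grade CD206 as high in the CD206hi MHCIIlo gate and as positive in the CD206pos MHCIIhi gate. The CD206hi MHCIIlo gate took cells low for MHC class II and the CD206pos MHCIIhi gate cells high for it. They are called CD206hi and CD206pos below. Cells were released with collagenase and DNase before sorting, and cDNA was amplified from low input, so each library is a bulk sample of a sorted gate.

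MHC class II molecules are pairs of alpha and beta chains that present peptides taken up from outside the cell to CD4 T cells. The invariant chain, encoded by Cd74, guides newly made molecules to the endosome, H2-DM helps load the peptide, and the coactivator CIITA, recruited by RFX and NF-Y factors bound to conserved promoter boxes, switches the genes on together. CD206, the mannose receptor encoded by Mrc1, is a lectin widely used as a label of alternatively activated macrophages, and in mammary tumours macrophages are commonly parted by CD206 and MHC class II.

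Mrc1, the gene of CD206, did not pass the test between the gates. Both required CD206, which their labels grade as high in CD206hi and as positive in CD206pos. Values over libraries are TMM-scaled CPM (counts relative to library size, corrected for composition), given in the order of tumours 5, 6, 8, 10 and 11. Mrc1 stood at 1098, 808, 847, 669 and 1668 CPM in CD206hi and 1775, 745, 908, 911 and 1527 CPM in CD206pos. The groups overlapped, and Mrc1 did not pass the test (log2 fold change of CD206hi over CD206pos -0.20 ± 0.20 (SE), edgeR quasi-likelihood adjusted p = 0.679). Ptprc, which encodes CD45, and Adgre1, which encodes F4/80, averaged 270.2 ± 57 against 331 ± 46.5 CPM and 661 ± 242 against 592 ± 237 CPM (SD, n = 5 each) and did not pass (edgeR adjusted p = 0.388 and 0.748). Of 13 general macrophage genes, among them Csf1r, Cd68 and the C1q chains, 0 passed, with a median log2 fold change of 0.17.

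Total counts of the 10 libraries ran from 6292411 to 9892472, and 11514 to 13025 genes were detected per library. Markers of other cells were present in both groups, and their part in the results below was not tested. Summed per list, luminal epithelial genes ran from 70.3 to 905 CPM in CD206hi and 64.2 to 1386 CPM in CD206pos, with tumour 6 highest in both groups. Fibroblast genes summed to 16.3 to 52 CPM in CD206hi and 14.5 to 38.2 CPM in CD206pos, endothelial genes to 11.3 to 22.2 CPM in CD206hi and 21.1 to 31.1 CPM in CD206pos, and the 5 T and NK cell genes analysed here to 20.3 to 33.6 CPM in CD206hi and 40.7 to 60.4 CPM in CD206pos. The T and NK sum was lower in CD206hi in 5 of 5 tumours. It was made up mostly of Cd4, at 16.6 ± 4.77 against 19.6 ± 11.7 CPM, and Cd2, at 7.0 ± 4.94 against 29.5 ± 17.1 CPM, while the T cell kinase Lck stood at 0.699 ± 0.477 against 0.765 ± 0.911 CPM and Gzmb, the cytotoxic protease, at 0 in every CD206pos library (SD, n = 5). The B and plasma cell genes analysed here, Cd79b and Sdc1, summed to 5.55 to 15 CPM in CD206hi and 9.48 to 47.8 CPM in CD206pos and were lower in CD206hi in 5 of 5 tumours; B cells also carry MHC class II. Pericyte genes summed to 5.33 to 21.4 CPM in CD206hi and 4.31 to 12.2 CPM in CD206pos and were higher in CD206hi in 5 of 5 (Cspg4 averaged 7.49 ± 5.31 against 1.33 ± 2.08 CPM). The neutrophil gene S100a8 averaged 1.46 ± 2.12 against 1.62 ± 1.65 CPM. None of the luminal, fibroblast or endothelial genes tested passed. In bulk libraries a smaller share of cells of some kind and less RNA per cell cannot be told apart.

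Across all genes, the differences ran mostly towards lower RNA in CD206hi. Of 10680 genes tested with tumour as a block, edgeR's quasi-likelihood test called 143 at a Benjamini-Hochberg adjusted p under 0.05, which is 1.34%. Of these 126 were lower (1.18% of genes tested) and 17 higher (0.159%) in CD206hi. These shares are the background for every count of called list members in the text. Among the lower genes 89 differed at least 2-fold and 42 at least 4-fold, and among the higher genes 7 and 3. The median log2 fold change over all genes was 0.02. Of the 126 lower genes, 124 were lower in 5 of 5 tumours, against 7.59% of all genes tested, and 17 of 17 higher genes were higher in 5 of 5, against 6.92% of all genes. The 2 exceptions, Ramp3 and Napsa, were lower in 4 of 5 tumours and are named for that, after their values were seen. The 5 CD206hi values lay wholly below the 5 CD206pos values for 48 of the 126 (0.721% of all genes do so), and wholly above them for 1 of the 17 (0.356% of all genes), the transcriptional regulator Cited2. Genes were called on these same values, so shared direction and separation follow in part from the call and add no support to it. The unadjusted p was under 0.05 for 1555 genes.

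**Figure D1:**
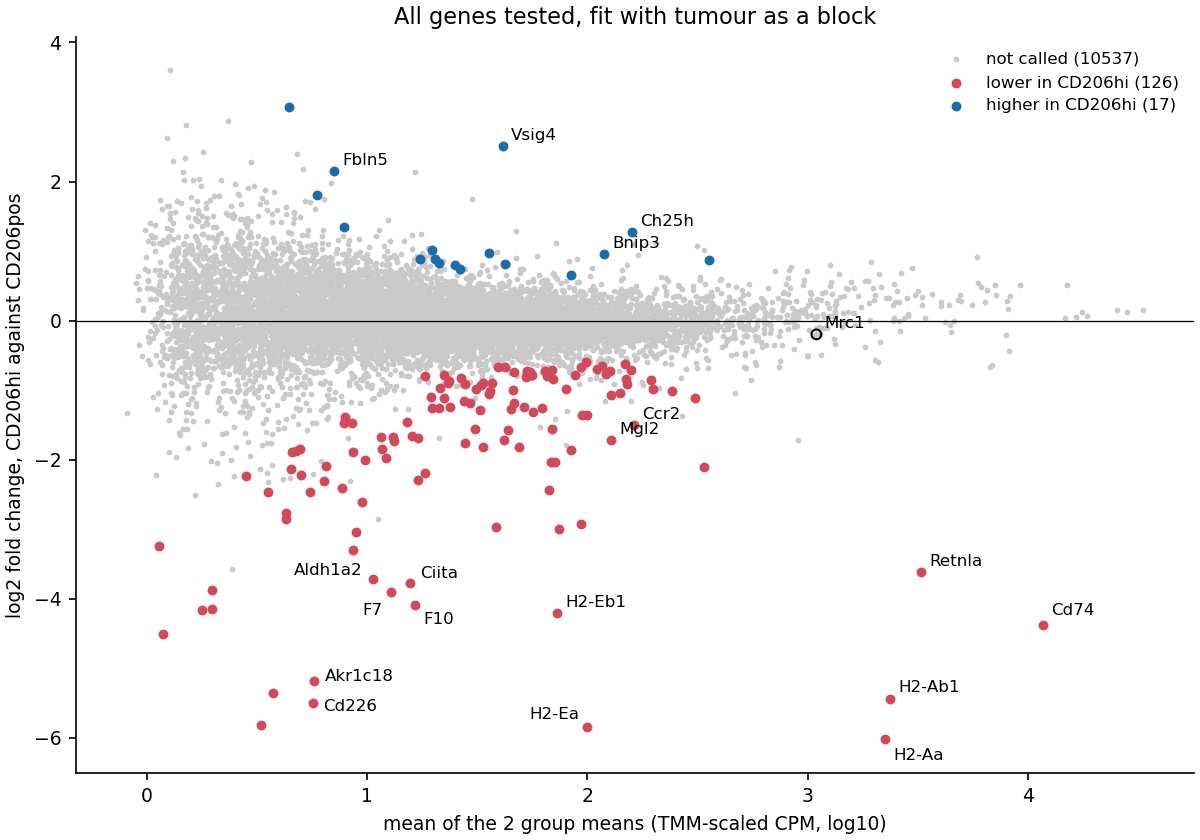
Log2 fold change of CD206hi over CD206pos (vertical axis) against mean level in TMM-scaled CPM (horizontal axis, log10) for 10680 genes; each point is a gene. The 126 genes lower in CD206hi (red) reach -6.02 at H2-Aa, the 17 higher genes (blue) are fewer, and Mrc1 (open circle) lies at -0.20.

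The number of genes called depended on which tumours were in the fit. The count of genes called was 52 without tumour 6, 86 without tumour 8, 92 without tumour 10, 74 without tumour 11 and 298 without tumour 5. Without the tumour block it was 21, of which 0 were higher, with 578 genes at an unadjusted p under 0.05; DESeq2 with the block called 368 genes, 86 of them higher. A core of 47 genes was called with each tumour left out in turn, and all 47 were lower in CD206hi. In 20 of these the call also held without the block: the MHC class II genes H2-Aa, H2-Ab1, H2-Ea, H2-Eb1, H2-DMa, H2-DMb1 and H2-DMb2, Cd74, Ciita, F7, F10, Serpinb2, Aldh1a2, Akr1c18, and, named for this after their values were seen, Cytip, Krt80, Olfm1, Plbd1, Tarm1 and 9830107B12Rik.

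The largest fall of all genes tested was in an MHC class II gene, H2-Aa. Of 14 list members tested, 9 were lower and 0 higher in CD206hi, with a median log2 fold change of -2.52 against 0.02 over all genes. The gate was set on MHC class II protein, so this list describes how far the gate reached into RNA and is no independent finding. Reads of H2 genes can be shared between family members, and FVB/N mice carry other alleles at these polymorphic genes than the C57BL/6J reference; the part of either in these counts was not tested.

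Gene positions are those of the RefSeq table on GRCm38.p6, the mm10 build. H2-Aa, which encodes the I-A alpha chain (Entrez gene 14960, chr17:34282744-34287823), stood at 10.6, 89.1, 18.5, 77.3 and 130.0 CPM in CD206hi and 458, 8126, 1562, 4985 and 6966 CPM in CD206pos. The groups did not overlap, and H2-Aa was 65-fold lower in CD206hi by the fit (log2 -6.02 ± 0.28, edgeR quasi-likelihood adjusted p = 1.84e-07). H2-Ab1, the I-A beta chain (Entrez gene 14961, chr17:34263227-34269418), stood at 25.8, 115, 38.1, 119.6 and 165 CPM in CD206hi and 568, 7973, 1810.2, 5523 and 7285 CPM in CD206pos (log2 -5.44 ± 0.30, edgeR adjusted p = 7.44e-07). Both chains followed the same order of tumours in CD206pos, lowest in tumour 5 and next lowest in tumour 8. H2-Eb1, the I-E beta chain, averaged 6.72 ± 3.86 against 139 ± 103 CPM (SD, n = 5; log2 -4.21 ± 0.21, adjusted p = 2.5e-07 by edgeR), and H2-Ea, an I-E alpha chain gene named for its large fall and not a list member, 3.78 ± 2.81 against 196 ± 101 CPM (log2 -5.84 ± 0.23, adjusted p = 5.39e-08 by edgeR). Neither overlapped between the groups.

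Expressed as a share of the CD206pos level in the same tumour, H2-Aa RNA in CD206hi was 2.31%, 1.1%, 1.19%, 1.55% and 1.87%. The H2-Aa level itself ranged 17.7-fold over the 5 CD206pos libraries and 12.3-fold over the 5 CD206hi libraries. In both populations tumour 5 held the least H2-Aa, tumour 8 the next least and tumour 10 the next after that, and the ratio moved less than the levels. For Ciita the CD206pos level ranged 20.2-fold, its CD206hi level 2.21-fold, and the share ran from 3.1% to 36.7%.

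Cd74 and chains of H2-DM and H2-O fell as well. Cd74, which encodes the invariant chain, stood at 247, 834, 629, 1216 and 2877 CPM in CD206hi and 5311, 34476, 11160.4, 24113 and 36553 CPM in CD206pos, without overlap (log2 -4.38 ± 0.35, edgeR adjusted p = 4.16e-05). It kept 2.42% to 7.87% of the CD206pos level, a larger share than H2-Aa in every tumour. The peptide-loading chains fell less: H2-DMa averaged 118 ± 25.3 against 562 ± 265 CPM (SD, n = 5; log2 -2.10 ± 0.25, adjusted p = 0.00077 by edgeR), H2-DMb1 18.4 ± 6.12 against 169.6 ± 102 CPM (log2 -2.93 ± 0.31, adjusted p = 0.000336 by edgeR) and H2-DMb2 13.9 ± 4.19 against 135 ± 83.5 CPM (log2 -2.99 ± 0.28, adjusted p = 0.000194 by edgeR). H2-Ob, a chain of the H2-O inhibitor of H2-DM, fell from 6.99 ± 2.55 to 2.13 ± 1.31 CPM (log2 -1.89 ± 0.39, adjusted p = 0.0368 by edgeR), the smallest fall among the 9 called members. Its call was lost without tumour 6, 8 or 11 (adjusted p = 0.225, 0.128 and 0.123), without the block (0.552) and in a fit of all 15 macrophage libraries (0.0655). That fit adds the macrophages labelled CD206neg MHCIIlo, whose MHC class II RNA differed between libraries as described below.

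Among the regulators only the coactivator passed the test. Ciita (Entrez gene 12265, chr16:10480014-10531064) stood at 1.08, 1.88, 1.39, 1.84 and 2.39 CPM in CD206hi and 2.94, 23.7, 25.1, 59.4 and 37 CPM in CD206pos, without overlap (log2 -3.77 ± 0.39, edgeR adjusted p = 0.000323). The subunits of RFX, the factor that binds the X box, did not pass: Rfx5 had a log2 fold change of -0.02 ± 0.31, Rfxap of 0.28 ± 0.18 and Rfxank of -0.15 ± 0.26, with edgeR adjusted p values of 0.981, 0.521 and 0.828. Ctss, a protease that trims the invariant chain, and Ifi30, a reductase of endocytosed antigen, averaged 4234 ± 1763 against 4179 ± 1295 CPM and 336 ± 75.7 against 355 ± 112 CPM (SD, n = 5) and did not pass (edgeR adjusted p = 0.976 and 0.902). Of 15 MHC class I genes tested 0 passed, with a median log2 fold change of -0.06.

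**Figure D2:**
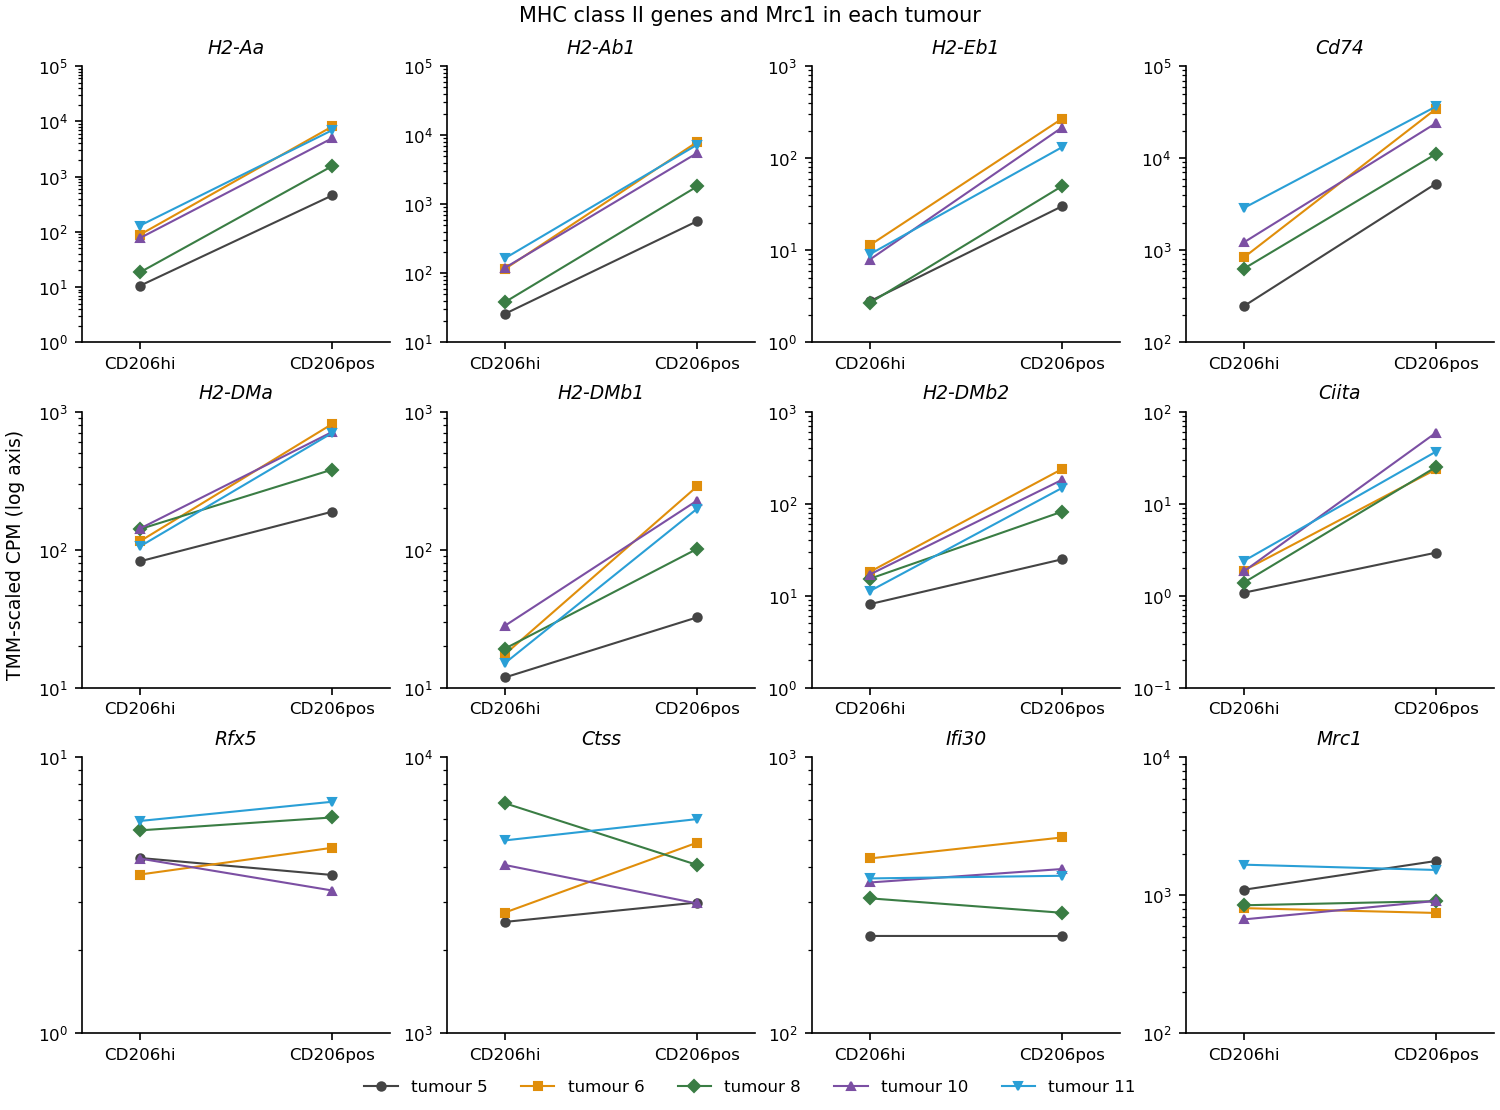
TMM-scaled CPM (log axis) of 11 MHC class II genes and Mrc1 in CD206hi and CD206pos; each line joins the 2 libraries of a tumour. The lines of H2-Aa, H2-Ab1, H2-Eb1, Cd74, H2-DMa, H2-DMb1, H2-DMb2 and Ciita climb in all 5 tumours, and those of Rfx5, Ctss, Ifi30 and Mrc1 run in both directions.

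Promoters of 3 genes that fell are printed because each holds a match to at least 1 of the boxes through which RFX, NF-Y and CIITA are known to act. Each is the 150 bases before the RefSeq start on build GRCm38.p6, 5′ to 3′ on the gene's strand, from the C57BL/6J reference: H2-Aa (chr17:34287824-34287973, minus strand), H2-Eb1 (chr17:34305717-34305866, plus strand) and H2-DMb1 (chr17:34153041-34153190, plus strand). Capitals mark matches to an X box core, AACNGATG, a Y box core, CTGATTGG, or CCAAT, searched on both strands; the Y box core holds the reverse complement of CCAAT, so each Y box is also a CCAAT match.
H2-Aa: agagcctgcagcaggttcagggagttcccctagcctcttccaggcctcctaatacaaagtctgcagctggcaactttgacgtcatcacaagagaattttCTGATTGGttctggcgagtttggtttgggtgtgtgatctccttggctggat
H2-Eb1: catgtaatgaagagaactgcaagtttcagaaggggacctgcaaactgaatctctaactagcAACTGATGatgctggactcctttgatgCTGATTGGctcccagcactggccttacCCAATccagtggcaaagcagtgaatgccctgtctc
H2-DMb1: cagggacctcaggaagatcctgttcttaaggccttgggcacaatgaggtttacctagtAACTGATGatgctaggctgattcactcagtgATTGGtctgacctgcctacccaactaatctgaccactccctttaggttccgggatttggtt
H2-Eb1 held both cores, the X box core beginning 89 and the Y box core 62 bases before the start, with 19 bases between them. H2-DMb1 held the X box core at 92 and a CCAAT match at 61 bases before the start, and H2-Aa the Y box core at 51 with no match to the X box letters used. Over the RefSeq table, 3.16% of 32851 promoters of this length held the Y box core, 1.14% the X box core and 24.5% CCAAT. Of the 13 promoters matched by symbol for 12 of the 16 list genes, 4 held the Y box core, 4 the X box core and 9 CCAAT. Both H2-DMa promoters, of a gene that fell, held none of the 3 motifs, and H2-Ob, which fell, and Rfx5, which did not pass, held CCAAT alone. A match of letters describes the sequence and no binding was measured.

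F7 and F10, the genes of coagulation factors VII and X, were 15-fold and 17-fold lower in CD206hi by the fit. Both proteins are known as products of the liver that act early in clotting. F7 (Entrez gene 14068, chr8:13025506-13035809) stood at 1.93, 0.672, 1.39, 0.716 and 1.65 CPM in CD206hi and 9.81, 29.2, 7.73, 53.1 and 22.6 CPM in CD206pos. F10 (Entrez gene 14058, chr8:13037308-13056676) stood at 2.16, 2.55, 0.463, 1.33 and 1.1 CPM in CD206hi and 7.85, 52.7, 12.9, 59.9 and 24.4 CPM in CD206pos. For either gene every CD206hi value lay below every CD206pos value. The log2 fold changes were -3.91 ± 0.50 for F7 and -4.09 ± 0.43 for F10 (edgeR quasi-likelihood adjusted p = 0.0013 and 0.000336). Tumours 6 and 10 held the highest F10 levels in CD206pos and tumour 5 the lowest. Both calls held without each tumour and without the block, where the adjusted p values were 0.0109 and 0.0119.

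The 2 genes lie side by side on chromosome 8, with 1498 bases between them, and the tested genes beside them did not pass. Atp11a, a phospholipid flippase gene upstream, averaged 14.3 ± 4.31 against 13 ± 3.71 CPM (SD, n = 5; log2 0.14 ± 0.21, adjusted p = 0.808 by edgeR). Downstream, Pcid2 had a log2 fold change of 0.14 ± 0.19 and Cul4a, a ubiquitin ligase scaffold, of 0.30 ± 0.20 (edgeR adjusted p = 0.779 and 0.539). Mcf2l, between Atp11a and F7, was below the count filter, at 0.566 ± 0.338 against 0.662 ± 0.598 CPM.

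Of 23 coagulation and fibrinolysis genes tested, 4 were lower and 0 higher in CD206hi (median log2 -0.19): F7, F10, Serpinb2 and Thbs1. Serpinb2, an inhibitor of plasminogen activators, stood at 1.54, 5.64, 0.926, 3.27 and 2.57 CPM in CD206hi and 17, 23.1, 6.14, 12.6 and 21.9 CPM in CD206pos, without overlap (log2 -2.61 ± 0.29, adjusted p = 0.000491 by edgeR, 0.0528 in a fit of all 15 macrophage libraries). Thbs1, the matrix glycoprotein thrombospondin-1, fell from 26 ± 8.73 to 8.14 ± 3.55 CPM (SD, n = 5; log2 -1.68 ± 0.23, adjusted p = 0.0024 by edgeR, 0.0511 without the block). Tissue factor, F3, the cofactor of factor VII, did not pass (15.1 ± 6.44 against 18.5 ± 3.3 CPM; log2 -0.37 ± 0.22, adjusted p = 0.461 by edgeR). Nor did the enzymes of the vitamin K dependent modification that both factors need, Ggcx (log2 0.36 ± 0.22) and Vkorc1 (log2 -0.19 ± 0.14), with edgeR adjusted p of 0.481 and 0.578.

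The other 19 tested members did not pass. F13a1, the clot-stabilising transglutaminase, averaged 2164 ± 1500.4 against 1588 ± 1240.0 CPM (SD, n = 5; log2 0.56 ± 0.25, adjusted p = 0.32 by edgeR), the protein S gene Pros1 170.1 ± 80.4 against 172 ± 102 CPM (log2 0.10 ± 0.18, adjusted p = 0.835 by edgeR) and the related Gas6 1035 ± 674 against 616 ± 307 CPM (log2 0.72 ± 0.23, adjusted p = 0.164 by edgeR). Plau, the urokinase gene, was at 90.1 ± 9.53 against 99.4 ± 19.9 CPM and its receptor Plaur at 443 ± 64.8 against 716 ± 334 CPM (edgeR adjusted p = 0.712 and 0.235). Procr, the protein C receptor, was lower in CD206hi in 5 of 5 tumours, at 19.4 ± 11.2 against 37 ± 26.1 CPM, and missed the threshold (edgeR adjusted p = 0.0648). Procr passed in 7 of 14 alternatives, among them DESeq2, voom, limma on the deposited values and both other filters (lowest adjusted p 0.000441), and had 0.983 without the block. Gas6 and Plaur, too, passed in DESeq2 and voom. Log2 fold changes of the thrombin receptor F2r (-0.60 ± 0.51), thrombomodulin Thbd (0.15 ± 0.24), the tissue factor inhibitor Tfpi (0.25 ± 0.16) and factor V, F5 (-0.80 ± 0.76), had edgeR adjusted p from 0.507 to 0.809. Those of Plat, Serpine2, Anxa2, S100a10 and Tgm2, whose products act in plasminogen activation or protein cross-linking, were -0.12, 0.08, -0.35, -0.46 and 0.16.

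**Figure D3:**
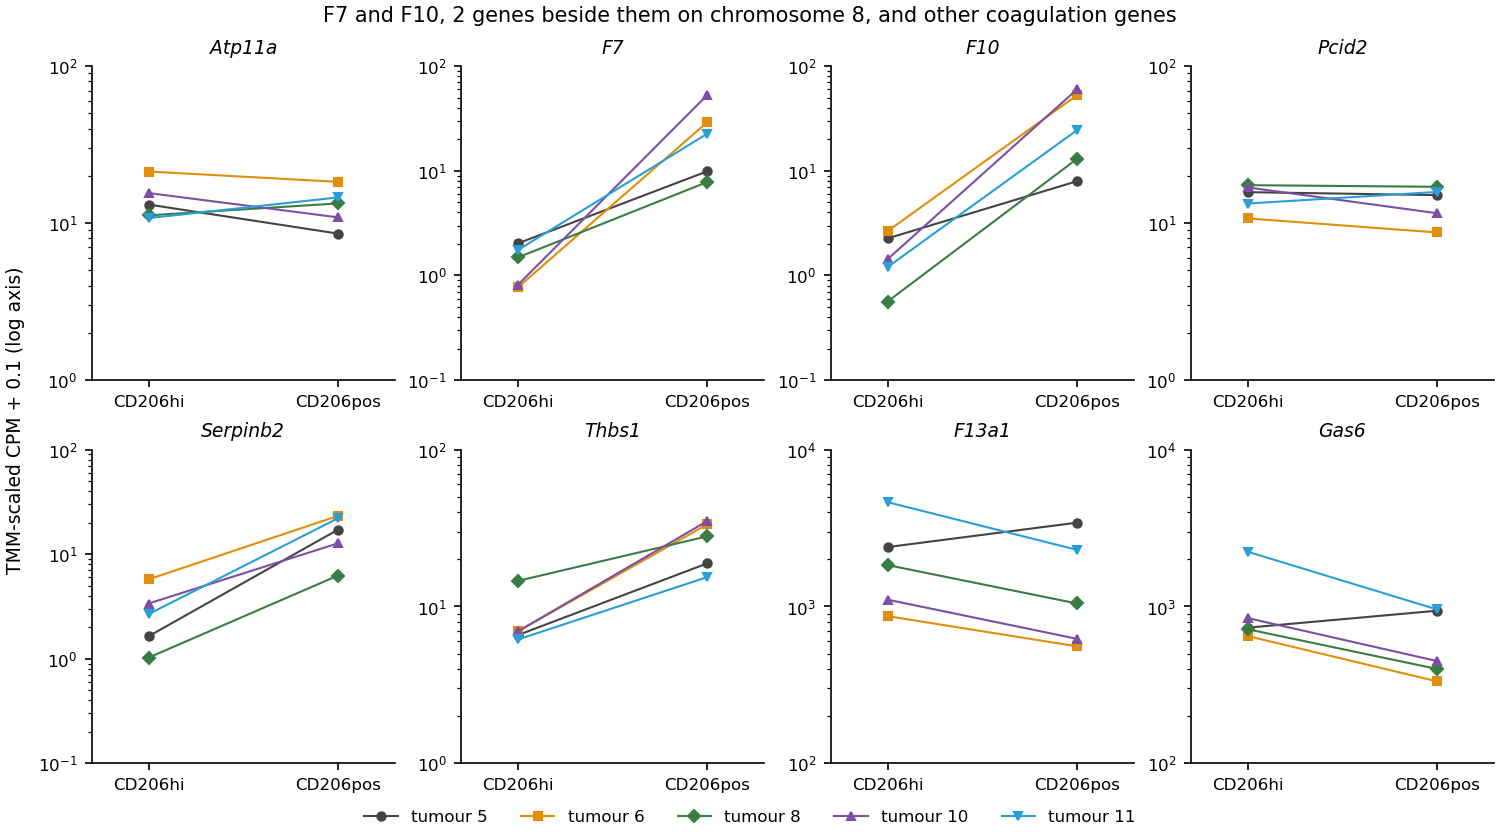
TMM-scaled CPM plus 0.1 (log axis) in CD206hi and CD206pos, with a line per tumour, for F7 and F10, the genes Atp11a and Pcid2 that lie beside them, and 4 other coagulation genes. F7, F10, Serpinb2 and Thbs1 climb towards CD206pos in all 5 tumours, and Atp11a, Pcid2, F13a1 and Gas6 do so in 1 or 2.

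Of 12 monocyte genes tested, 6 were lower and 0 higher in CD206hi (median log2 -1.31): Ccr2, F10, Thbs1, Chil3, Hp and Clec4e. F10 and Thbs1 stand in the coagulation list too. Ccr2, the receptor that draws monocytes out of the blood (Entrez gene 12772, chr9:124101918-124109140), stood at 68.3, 55, 78.2, 85.9 and 138 CPM in CD206hi and 208, 185, 217, 189 and 402 CPM in CD206pos, without overlap (log2 -1.50 ± 0.14, adjusted p = 0.000194 by edgeR). Chil3, a chitinase-like protein, was barely detected in CD206hi, at 0.185 ± 0.221 CPM and at most 4 counts in a library, against 3.39 ± 2.02 CPM in CD206pos (SD, n = 5; log2 -4.16 ± 0.71, adjusted p = 0.0114 by edgeR). Hp, haptoglobin, and Clec4e, the lectin Mincle, averaged 1.67 ± 1.79 against 9.31 ± 10.04 CPM and 196 ± 69.4 against 423 ± 156 CPM (log2 -2.47 ± 0.40 and -1.12 ± 0.21, edgeR adjusted p = 0.00821 and 0.0188). With so few counts the fitted fold of Chil3 depends on the prior count. All 12 tested members had a log2 fold change below 0. The monocyte surface gene Ly6c2 was under the filter in both groups, at 0.0368 ± 0.0822 against 0.521 ± 0.673 CPM, and Fn1, Vcan and Plac8 did not pass (edgeR adjusted p = 0.209, 0.237 and 0.237). Calls were lost, with edgeR adjusted p in parentheses, for Chil3, Hp and Clec4e without tumour 6 (0.0908 to 0.17), Clec4e without tumour 10 (0.0688), Chil3 and Clec4e without tumour 11 (0.0688 to 0.0722) and all 5 without the tumour block (0.0511 to 0.488).

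Genes of alternative activation, for which CD206 is a common label, held no called rise in the CD206hi gate. Of 12 tested, 4 were lower and 0 higher (median log2 -1.11): Retnla, Mgl2, Chil3 and Pdcd1lg2. Retnla, a secreted protein induced by interleukin 4 (Entrez gene 57262, chr16:48842609-48844461), stood at 217, 435, 78.1, 163 and 2336 CPM in CD206hi and 847, 9888, 1266, 6475 and 11065 CPM in CD206pos. Within each tumour it was 2.52% to 25.6% of the CD206pos level (log2 -3.62 ± 0.49, adjusted p = 0.00193 by edgeR), and the groups overlapped because CD206hi of tumour 11 held more than CD206pos of tumours 5 and 8. Mgl2, the lectin CD301b (Entrez gene 216864, chr11:70130125-70137542), stood at 45, 71.8, 18.9, 49.4 and 134 CPM in CD206hi and 122, 215, 97, 195 and 331 CPM in CD206pos (log2 -1.72 ± 0.17, adjusted p = 0.000249 by edgeR), lower in 5 of 5 tumours with overlap between tumours. Arg1, arginase 1, went the other way without passing, at 64.9 ± 60.4 against 29.6 ± 35.7 CPM (log2 1.29 ± 0.45, edgeR adjusted p = 0.194). The interleukin 4 receptor Il4ra, at log2 0.45 ± 0.20, did not pass either (edgeR adjusted p = 0.318). With edgeR adjusted p in parentheses, calls were lost for Chil3 without tumour 6 (0.0908), Pdcd1lg2 without tumour 8 (0.08), Pdcd1lg2 without tumour 10 (0.0938), Chil3 and Pdcd1lg2 without tumour 11 (0.0688 to 0.0807), all 4 without the tumour block (0.0559 to 0.526) and Retnla and Mgl2 in a fit of all 15 macrophage libraries (0.0771 to 0.0999). The fit without tumour 6 gave no value for Pdcd1lg2.

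Genes used as dendritic cell markers included 4 called lower of 14 tested and 0 called higher (median log2 -0.91). All 14 tested members had a log2 fold change below 0, and the list sum was lower in CD206hi in 5 of 5 tumours. Clec4b1, a C-type lectin, stood at 2.54, 7.26, 5.44, 12.7 and 6.62 CPM in CD206hi and 6.6, 136, 30.3, 121 and 57.5 CPM in CD206pos (log2 -2.97 ± 0.31, adjusted p = 0.000323 by edgeR). Its CD206hi level lay below the CD206pos value of the same tumour each time, with overlap between tumours. Batf3 and Irf4, transcription factors of dendritic cell subsets, averaged 3.21 ± 1.3 against 16.3 ± 12.6 CPM and 8.54 ± 5.46 against 23.6 ± 8.57 CPM (SD, n = 5), and Naaa, a lysosomal lipid hydrolase, 83.3 ± 24.3 against 174 ± 38.1 CPM. On the log2 scale they changed by -2.01 ± 0.35, -1.66 ± 0.29 and -1.07 ± 0.18 (edgeR adjusted p = 0.0125, 0.0138 and 0.0103). Defining markers of the lineage were low in both groups and did not pass: Zbtb46 at 1.98 ± 1.41 against 3.38 ± 2.39 CPM, Xcr1 at 3.02 ± 2.67 against 3.29 ± 2.91 CPM and Ccr7 at 1.34 ± 1.15 against 4.24 ± 3.49 CPM. Itgax, which encodes CD11c, had a log2 fold change of -0.92 ± 0.29 (edgeR adjusted p = 0.167). The part of dendritic cells in the CD206pos gate was not tested. The test no longer called (edgeR adjusted p in parentheses) Naaa, Batf3 and Irf4 without tumour 6 (0.0655 to 0.135), Irf4 without tumour 8 (0.0683), Batf3 without tumour 10 (0.0858), Batf3 without tumour 11 (0.0594) and all 4 without the tumour block (0.0604 to 0.625).

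Costimulation and checkpoint genes gave 5 lower and 0 higher of 18 tested, with a median near that of all genes (log2 -0.11). Slamf7, an adhesion receptor of leukocytes, stood at 25.4, 49.3, 13.9, 21.2 and 45.2 CPM in CD206hi and 42.9, 111, 36.1, 74.9 and 95.7 CPM in CD206pos (log2 -1.24 ± 0.16, adjusted p = 0.00157 by edgeR). Cd40, through which T cells license antigen-presenting cells, fell from 90.1 ± 26.6 to 50.1 ± 14.6 CPM (SD, n = 5; log2 -0.84 ± 0.14, adjusted p = 0.00875 by edgeR), and Tnfsf14, the ligand LIGHT, from 27.1 ± 14.9 to 12.4 ± 9.43 CPM (log2 -1.26 ± 0.21, adjusted p = 0.0103 by edgeR). The genes of both PD-1 ligands fell as well, Cd274 at 16.7 ± 4.12 against 30.6 ± 6.97 CPM and Pdcd1lg2 at 0.315 ± 0.584 against 3.63 ± 2.74 CPM (log2 -0.87 ± 0.17 and -4.15 ± 0.82, edgeR adjusted p = 0.0236 and 0.0274). The CD206hi mean of Pdcd1lg2 lay near the level of 3 counts, so its fitted fold change depends on the prior count. The classical ligands of CD28 did not pass: Cd80 was at 13.4 ± 5.73 against 24.4 ± 8.75 CPM (log2 -0.88 ± 0.22, edgeR adjusted p = 0.0896) and Cd86 at 195 ± 29.4 against 247 ± 72.5 CPM (log2 -0.31 ± 0.15, edgeR adjusted p = 0.386). Calls were lost, with edgeR adjusted p in parentheses, for Cd40 and Cd274 without tumour 6 (0.0786 to 0.18), Cd274 and Pdcd1lg2 without tumour 8 (0.08 to 0.102), Cd274 and Pdcd1lg2 without tumour 10 (0.0677 to 0.0938), Tnfsf14, Cd274 and Pdcd1lg2 without tumour 11 (0.0545 to 0.121), all 5 without the tumour block (0.361 to 0.965) and Slamf7, Cd40 and Tnfsf14 in a fit of all 15 macrophage libraries (0.0737 to 0.103). The fit without tumour 6 gave no value for Pdcd1lg2.

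Few inflammatory mediators passed the test, in short lists beside a share of 1.34% called over all genes tested. Of 15 inflammatory cytokine genes 1 fell and 0 rose (median log2 -0.59). Il6 stood at 19.1, 47.2, 10.5, 7.47 and 20.8 CPM in CD206hi and 62.7, 102, 24.6, 54 and 71.5 CPM in CD206pos (log2 -1.72 ± 0.22, adjusted p = 0.00145 by edgeR) and was lower in CD206hi in 5 of 5 tumours. Tnf averaged 709 ± 374 against 552 ± 175 CPM and Il1b 5504 ± 2819.8 against 8198 ± 2855 CPM (SD, n = 5), neither passing (edgeR adjusted p = 0.482 and 0.438), and Il10, the anti-inflammatory cytokine, was at 273 ± 102 against 436 ± 173 CPM and just missed (edgeR adjusted p = 0.0512). Of 12 CC chemokine genes 0 passed, and of 11 CXC chemokine genes 1, the neutrophil attractant Cxcl3, which fell from 269 ± 233 to 129 ± 105 CPM (log2 -0.99 ± 0.15, adjusted p = 0.00498 by edgeR). Of 29 interferon-stimulated genes 1 passed, the cytokine signalling suppressor Socs1 (5.6 ± 2.2 against 20.5 ± 13.7 CPM; log2 -1.68 ± 0.28, adjusted p = 0.0101 by edgeR). Of 23 immediate early and stress genes, which tissue digestion can induce, 1 passed, the AP-1 member Fosl2 (47.8 ± 15.3 against 80.9 ± 34.1 CPM; log2 -0.72 ± 0.15, adjusted p = 0.0372 by edgeR), and the median was 0.26. With edgeR adjusted p in parentheses, calls were lost for Socs1 and Fosl2 without tumour 6 (0.13 to 0.167), Fosl2 without tumour 8 (0.129), Fosl2 without tumour 10 (0.0787), Fosl2 without tumour 11 (0.106), all 4 without the tumour block (0.261 to 0.984) and Il6 and Fosl2 in a fit of all 15 macrophage libraries (0.053 to 0.0619).

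Surface lectins, proteases and growth factors held further falls. Of 26 lectin and scavenger receptor genes tested 6 fell and 0 rose: Clec4b1, Mgl2, Olr1, Clec4e, Clec4a1 and Clec4a2. Near copies in the Clec4 family can share reads. Olr1, the receptor of oxidised low-density lipoprotein, averaged 12.9 ± 8.06 against 29.5 ± 12.2 CPM (SD, n = 5; log2 -1.26 ± 0.19, adjusted p = 0.00498 by edgeR). Of 7 Fc receptor genes 1 fell, Fcgr4, at 19.3 ± 4.46 against 34.3 ± 7.39 CPM without overlap (log2 -0.83 ± 0.14, adjusted p = 0.0114 by edgeR). Of 22 matrix protease and inhibitor genes 2 fell, the metalloproteinase Mmp19 (59.3 ± 36.4 against 139 ± 68.7 CPM; log2 -1.36 ± 0.16, adjusted p = 0.00061 by edgeR) and the inhibitor Timp1 (36.6 ± 28.9 against 102 ± 62.1 CPM; log2 -1.56 ± 0.19, adjusted p = 0.0011 by edgeR). Of 21 angiogenic and growth factor genes 1 fell, the activin subunit Inhba (1.99 ± 3.27 against 15.3 ± 16.1 CPM; log2 -3.30 ± 0.60, adjusted p = 0.0166 by edgeR). In CD206hi, Inhba stood at 7.79 CPM in tumour 6. It stood at 0, 0.463, 0.614 and 1.1 CPM in tumours 5, 8, 10 and 11, which are levels of few counts. The test no longer called (edgeR adjusted p in parentheses) Clec4a1, Clec4a2, Fcgr4 and Inhba without tumour 6 (0.0655 to 0.194), Clec4a1 and Fcgr4 without tumour 8 (0.06251 to 0.0785), Clec4a2 and Inhba without tumour 10 (0.074 to 0.0788), Clec4a1, Clec4a2 and Fcgr4 without tumour 11 (0.0594 to 0.119), all 7 without the tumour block (0.361 to 0.887) and Clec4a1, Fcgr4 and Inhba in a fit of all 15 macrophage libraries (0.053 to 0.274).

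Aldh1a2 and Akr1c18 were 2 enzyme genes whose falls held without each tumour and without the block. Aldh1a2, which makes retinoic acid from retinal (Entrez gene 19378, chr9:71215789-71296243), stood at 0.694, 1.34, 0.231, 1.64 and 4.41 CPM in CD206hi and 7.32, 18.4, 8.43, 28.4 and 35.5 CPM in CD206pos, without overlap (log2 -3.71 ± 0.30, adjusted p = 4.16e-05 by edgeR). It was the sole member called of 11 retinoid and vitamin D genes tested, whose median log2 fold change was -0.01. Akr1c18, an aldo-keto reductase that inactivates progesterone (Entrez gene 105349, chr13:4132615-4150646), stood at 0, 0.537, 0, 0.512 and 0.551 CPM in CD206hi and 1.78, 18.4, 2.02, 20.9 and 12.7 CPM in CD206pos (log2 -5.18 ± 0.46, adjusted p = 9.5e-05 by edgeR). In CD206hi it never exceeded 5 counts in a library, so its fitted fold change depends on the prior count. Cd226, a receptor of lymphocytes and monocytes that binds nectin-family ligands, was at 0.298 ± 0.431 CPM in CD206hi, with 0 counts in 3 of 5 libraries, against 11 ± 11.3 CPM (log2 -5.50 ± 0.56, adjusted p = 0.000294 by edgeR, 0.0604 without the block). Cd2, a lymphocyte adhesion receptor, averaged 7.0 ± 4.94 against 29.5 ± 17.1 CPM (log2 -2.19 ± 0.33, adjusted p = 0.0051 by edgeR, 0.0539 without tumour 6, 0.533 without the block, 0.0707 with all 15 macrophage libraries), beside the T and NK sums given above. The part of lymphocytes in the levels of Cd2 and Cd226 was not tested.

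Fewer genes were higher in CD206hi. Vsig4, the complement receptor CRIg of resident macrophages (Entrez gene 278180, chrX:96247201-96293438), stood at 96.5, 48.8, 59.1, 25.2 and 85.3 CPM in CD206hi and 65.8, 7.06, 3.51, 1.7 and 20.3 CPM in CD206pos. It was higher in CD206hi in 5 of 5 tumours, but CD206pos of tumour 5 held more than 3 of the CD206hi libraries (log2 2.51 ± 0.41, adjusted p = 0.00961 by edgeR). A robust quasi-likelihood fit did not call Vsig4. Ch25h, which makes 25-hydroxycholesterol (Entrez gene 12642, chr19:34473783-34475148), stood at 176, 229, 372, 209.9 and 129 CPM in CD206hi and 96.9, 85.6, 161, 40.9 and 88.7 CPM in CD206pos (log2 1.27 ± 0.22, adjusted p = 0.0138 by edgeR). The ranges met at the edge, as CD206hi of tumour 11 lay below CD206pos of tumour 8. Cela1, an elastase-family protease, stood at 32.5, 71.5, 31.8, 56.5 and 44.5 CPM in CD206hi and 21.1, 32.1, 14.2, 25.5 and 26.3 CPM in CD206pos (log2 0.97 ± 0.15, adjusted p = 0.00529 by edgeR), the smallest adjusted p among the 17 higher genes, with ranges that touched. Bnip3, a mitochondrial protein induced by hypoxia, averaged 158 ± 85.4 against 80.9 ± 48.9 CPM (SD, n = 5; log2 0.96 ± 0.18, adjusted p = 0.0193 by edgeR), Pdpn, the membrane glycoprotein podoplanin, 26.1 ± 14.2 against 13.3 ± 9.54 CPM (log2 1.01 ± 0.18, adjusted p = 0.0173 by edgeR) and Fbln5, an elastic fibre protein, 11.2 ± 8.71 against 3.0 ± 3.16 CPM (log2 2.15 ± 0.47, adjusted p = 0.0469 by edgeR). Cspg4, a proteoglycan of pericytes, rose to 7.49 ± 5.31 against 1.33 ± 2.08 CPM (log2 3.07 ± 0.66, edgeR adjusted p = 0.0429), and the other pericyte gene tested, Abcc9, was at 1.54 ± 0.561 against 1.55 ± 1.02 CPM. None of the 17 calls held without tumour 6 or without the block. For these 7 genes calls were lost, with edgeR adjusted p in parentheses, for all 7 without tumour 6 (0.0636 to 0.256), Ch25h, Bnip3, Pdpn, Fbln5 and Cspg4 without tumour 8 (0.0623 to 0.127), Bnip3, Pdpn, Fbln5 and Cspg4 without tumour 10 (0.0561 to 0.0965), Fbln5 and Cspg4 without tumour 11 (0.106 to 0.198), all 7 without the tumour block (0.429 to 0.953) and Cela1, Bnip3, Pdpn, Fbln5 and Cspg4 in a fit of all 15 macrophage libraries (0.0534 to 0.207).

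The remaining large rises were the palmitoyltransferase Zdhhc2, the cobalamin transporter Abcd4, the cytokinesis regulator Racgap1, the ribosome biogenesis gene Wdr36, the linker histone H1f2 and the predicted gene Gm12070. Their log2 fold changes ran from 0.81 (H1f2) to 1.35 (Zdhhc2), with edgeR adjusted p from 0.0283 (Abcd4) to 0.0477 (Gm12070). Each was higher in CD206hi in 5 of 5 tumours with overlapping groups. Racgap1 averaged 26.7 ± 11.8 against 14.1 ± 4.6 CPM and H1f2 53.8 ± 13.8 against 31.2 ± 9.87 CPM (SD, n = 5). With RLE scaling factors in place of TMM, H1f2 was not called. Calls were lost, with edgeR adjusted p in parentheses, for Zdhhc2, Gm12070 and H1f2 without tumour 5 (0.0548 to 0.0741), all 6 without tumour 6 (0.135 to 0.278), all 6 without tumour 8 (0.0912 to 0.143), Zdhhc2, Racgap1, Gm12070 and Wdr36 without tumour 10 (0.0961 to 0.148), Zdhhc2, Abcd4, Racgap1, Wdr36 and H1f2 without tumour 11 (0.0594 to 0.17), all 6 without the tumour block (0.349 to 0.784) and Gm12070, Wdr36 and H1f2 in a fit of all 15 macrophage libraries (0.053 to 0.147).

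Each list to which a higher gene belongs held 1 called gene. Of 22 perivascular and resident macrophage genes Vsig4 alone passed, and 17 of 22 had a log2 fold change above 0 (median 0.45). Lyve1, a hyaluronan receptor of perivascular macrophages, averaged 262 ± 157 against 146 ± 174 CPM (SD, n = 5; log2 1.12 ± 0.28, edgeR adjusted p = 0.0891), while for Folr2 and Timd4 the log2 value was 0.62 ± 0.22 and -0.05 ± 0.16 (edgeR adjusted p = 0.211 and 0.921). Of 29 cell cycle genes 1 passed, the mitotic cyclin Ccnb2 (33.3 ± 18.2 against 19.4 ± 9.12 CPM; log2 0.75 ± 0.16, adjusted p = 0.0367 by edgeR), while 28 of 29 lay above 0 (median 0.48). Mki67, the common marker of dividing cells, was at 43.8 ± 11 against 42.9 ± 19.7 CPM (edgeR adjusted p = 0.867). Of 25 hypoxia and glycolysis genes Bnip3 alone passed and 18 lay above 0 (median 0.42), Aldoa and Gapdh missing the threshold (edgeR adjusted p = 0.0836 and 0.0732). The call of Ccnb2 was lost without tumour 6 (0.101), tumour 8 (0.159), tumour 10 (0.0965), tumour 11 (0.123), the tumour block (0.951) and Ccnb2 in a fit of all 15 macrophage libraries (0.13).

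Several programmes gave no called gene in either direction: lipid-associated macrophage (0 of 20 tested), haem and iron (0 of 17), eicosanoid (0 of 17) and integrin and adhesion genes (0 of 19). Over all genes tested 1.34% were called, so 0 calls in a list this short do not set it apart. Trem2, a lipid receptor, averaged 503 ± 205 against 379 ± 74.9 CPM, Apoe 35384 ± 18429.8 against 31192 ± 13332 CPM and Spp1 2546 ± 2822 against 1332 ± 1228 CPM (SD, n = 5), with log2 fold changes of 0.34 ± 0.17, 0.15 ± 0.37 and 0.85 ± 0.24. Among 30 myeloid transcription factor genes, Irf4 and Batf3 fell and the others did not pass, Spi1, the lineage factor PU.1, among them (651 ± 174 against 632 ± 196 CPM; log2 0.07 ± 0.20, edgeR adjusted p = 0.903).

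**Figure D4:**
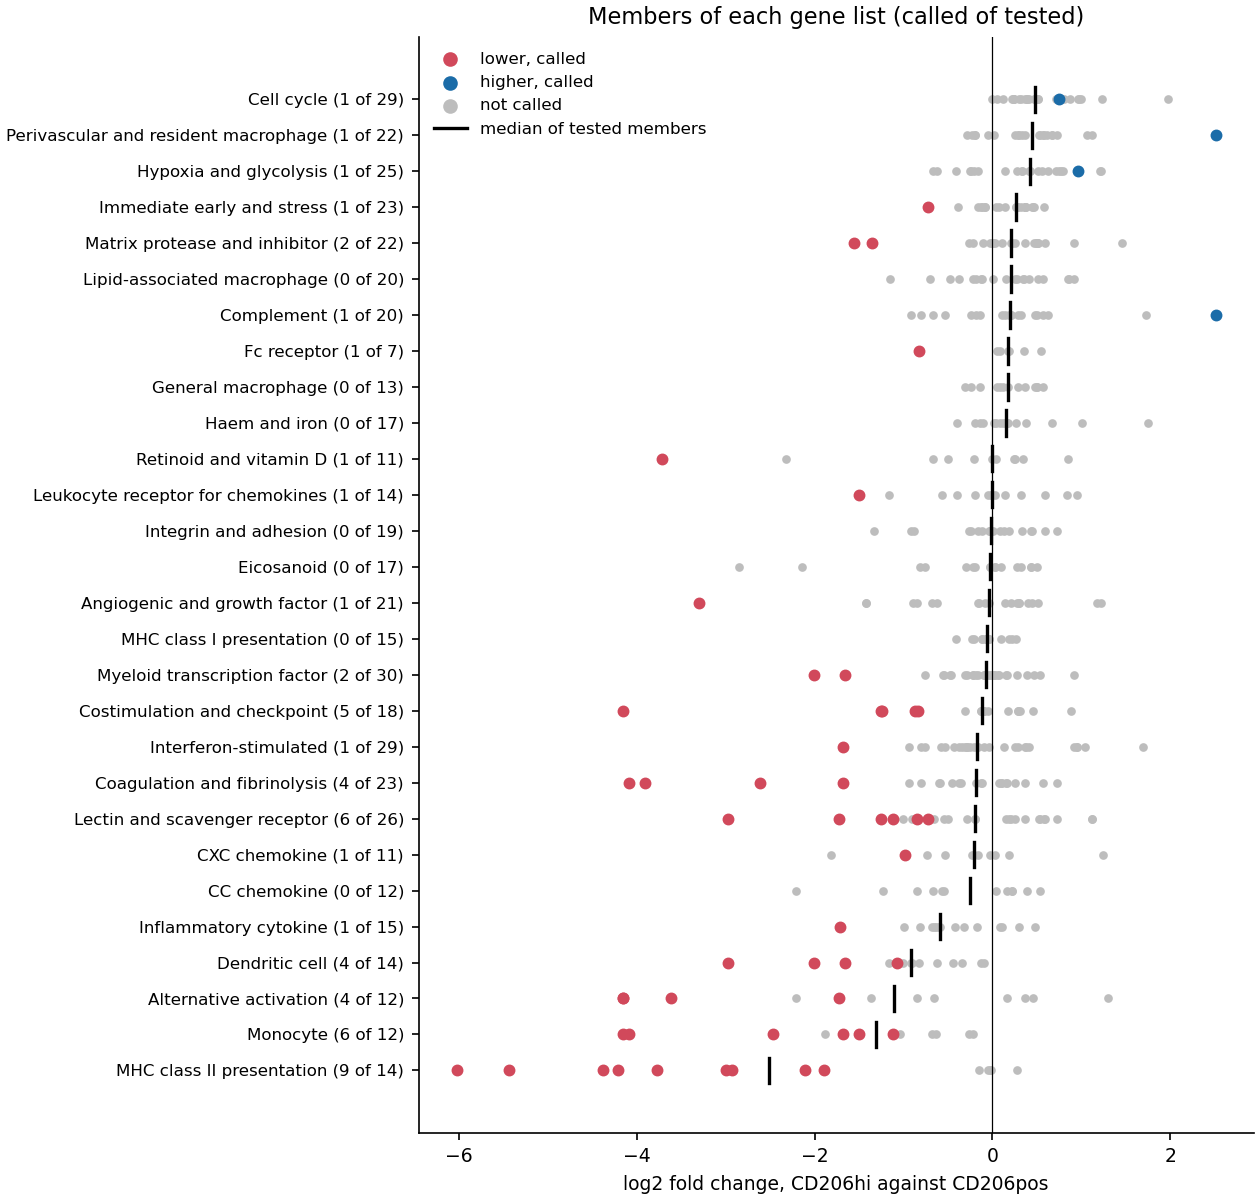
Log2 fold change of CD206hi over CD206pos (horizontal axis) of every tested member of each function or cell state list (rows, with the number called of the number tested); black bars are list medians, red and blue points called genes. MHC class II, monocyte, alternative activation and dendritic cell genes lie lowest, and the medians of the other lists lie between -0.59 and 0.48.

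Within tumours, the called genes differed by unequal amounts. The median log2 fold change of the 126 lower genes was -1.01 in tumour 5, -1.46 in tumour 6, -1.20 in tumour 8, -1.83 in tumour 10 and -1.43 in tumour 11. Tumour 5 had the smallest and tumour 10 the largest difference, and the 17 higher genes followed only in part (medians 0.86, 1.12, 0.84, 1.31 and 0.67 in the same order). Summed over the MHC class II list without Ctss and Ifi30, which are abundant and were left out after their values were seen, CD206pos exceeded CD206hi 16.2-fold, 42.3-fold, 16.9-fold, 21.9-fold and 15.5-fold. CD206pos of tumours 5 and 8 held the lowest of these sums (6638 and 15211 CPM) against 36054 to 52257 CPM in the other 3, so MHC class II RNA in the gate named for high MHC class II differed between tumours. The part of that difference in the other genes' fold changes was not tested.

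**Figure D5:**
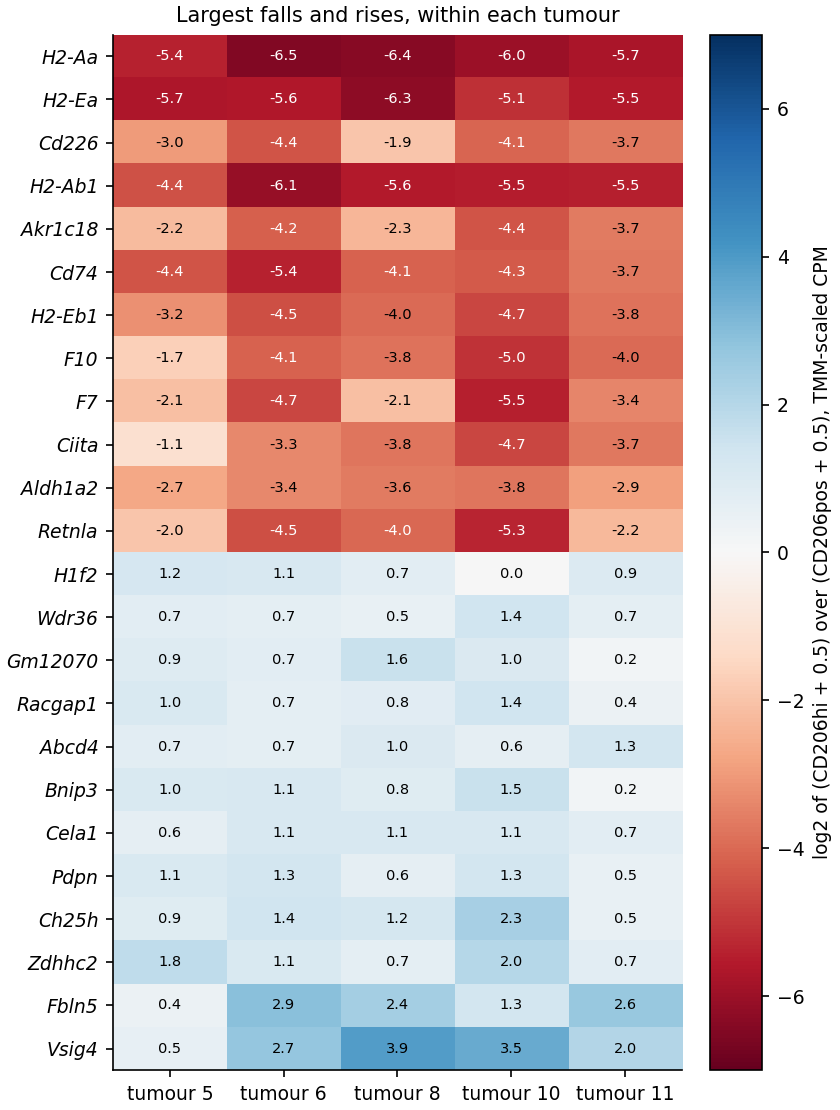
Log2 ratio of CD206hi to CD206pos within each tumour (columns, 0.5 CPM added to both) for the 12 largest falls and 12 largest rises (rows) among called genes that averaged 10 CPM or more where higher. H2-Aa runs from -6.50 to -5.37, Ciita from -1.12 in tumour 5 to -4.68 in tumour 10, and Vsig4 from 0.55 in tumour 5 to 3.89 in tumour 8.

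Set against the other sorted populations, in CPM of the library total without TMM scaling, 78 of the 126 lower genes had their highest mean in CD206pos. Another 37 had it in fibroblasts or endothelial cells and 11 in the macrophages labelled CD206neg MHCIIlo. The 126 genes were selected as higher in CD206pos than in CD206hi, which favours CD206pos in this count. No such count was made over all genes tested. Akr1c18 averaged 249 CPM in CD34-positive fibroblasts against 10.4 in CD206pos, Timp1 1344 CPM in CD34-negative fibroblasts against 96.8, and Il6 1155 against 60.3. The fibroblast collagen gene Col1a1 stood at 22988 CPM in CD34-negative fibroblasts and at 1.82 to 6.56 CPM in CD206hi and 1.62 to 4.61 CPM in CD206pos libraries. F7, F10, Ccr2, Retnla and Mgl2 were highest in CD206pos, and none of the 5 averaged above 1.13 CPM in fibroblasts or endothelial cells.

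The CD206neg macrophages lay on both sides of the pair. For 62 of the 126 lower genes their mean lay below both groups, for 48 between them and for 16 above both. The columns of 2 CD206neg libraries, of tumours 6 and 8, carry a high MHC class II name although their labels give low. In these 2 libraries H2-Aa stood at 7874 and 2778 CPM, against 20.2, 391 and 335 CPM in CD206neg of tumours 5, 10 and 11. Ciita stood at 20 and 21.9 CPM against 1.01, 2.11 and 1.76 CPM. The MHC class II RNA of the 2 libraries thus went with the column names and not with the labels. Without them, 66 of the 126 lower genes had a CD206neg mean below both groups, 46 between and 14 above both. F7 averaged 1.79 CPM and F10 1.88 CPM in CD206neg, beside 1.29 and 1.62 CPM in CD206hi, and 2.49 and 2.55 CPM without the 2. Of the 17 higher genes 7 were highest in CD206hi, Vsig4 among them at 63.7 CPM against 0.448 in CD206neg, and 4 in CD206neg, Bnip3 among them at 235 CPM against 164 in CD206hi. The other 6 were highest in fibroblasts or endothelial cells: Fbln5 averaged 218 CPM and Cspg4 92 CPM in CD34-negative fibroblasts and Pdpn 101 CPM in CD34-positive ones, against 10.4, 7.82 and 27.3 CPM in CD206hi. These orders of means are descriptions and were not tested. The called genes were selected on the difference between CD206hi and CD206pos, and the orders were not counted over all genes tested.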

How the data were processed

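Bulk RNA of sorted populations from 5 tumours was sequenced. Per the submitters' processing notes the authors used Trimmomatic 0.36, HISAT2 2.0.4, SAMtools 1.3.1 and DESeq2 1.26 with build mm10; the labels used here name no counting tool, annotation or strand setting. The authors deposited a table of raw counts per gene (14118 genes, 14104 with a symbol, lowest total 72) and a table of normalised signal, which equals the counts divided by 1 size factor per library. Library totals of the 10 libraries were 6292411 to 9892472 counts, so that 3 counts correspond to 0.231 to 0.588 scaled CPM; such limits cover counting error only. Samples were grouped by their labels. The column names of CD206neg tumours 6 and 8 say high MHC class II where the labels say low, and the labels were followed.

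Counts were filtered with filterByExpr, TMM-scaled and tested with edgeR 4.0.16 (quasi-likelihood, tumour as a block, Benjamini-Hochberg adjusted p under 0.05) in R 4.3.3. The standard error is the size of the log2 fold change divided by the square root of F. Alternatives used DESeq2 1.42.0, limma 3.58.1 on log2 of the deposited normalised values, voom, other filters, other scaling, all 15 macrophage libraries, no block, and each tumour left out. Both libraries of a tumour share 1 animal, per the series' design text; their deviations from the group means correlated at 0.191 to 0.699, and were highest with the own tumour in 4 of 5. On simulated data for this comparison (10680 genes, 200 changed), edgeR found 67% of 2-fold and 98% of 4-fold changes, with 4.62% of calls false. Without a block it found 6% and 76%. Simulated levels kept the mean fitted for each tumour, so tumour differences were built in and favoured the block. Counts were drawn from the trended dispersion, with the same fold change in every tumour. These percentages therefore do not give the error rates of the real comparison.

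The populations, gene lists and rule for named genes were chosen with earlier results of these data known. The rule names gate markers, the 12 largest rises and falls that averaged 10 CPM or more where higher and had the same direction in 5 of 5 tumours, up to 3 called members per list and direction by smallest p, all MHC class II and coagulation members, and the genes beside F7 and F10. Other genes were named after their values were seen. The value of 1 coagulation list member is not reported here. The reads came from FVB/N mice and mm10 is a C57BL/6J assembly. The X box letters were settled after matches had been seen. Promoter sequences and gene positions are from RefSeq on GRCm38.p6.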

Additional observations from a re-analysis of the deposited data

Results flagged for a closer look

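A library lay far from the other 4 of its group for 7 of the 135 gene and group combinations looked at; chance alone sets about 1 in 20 such groups apart. In CD206hi, tumour 11 held 2336 CPM of Retnla, the next highest library 435, and 2233 CPM of Gas6, the next highest 844. Tumour 8 held 14.5 CPM of Thbs1 in CD206hi, the next 6.85, and tumour 5 held 27.1 CPM of Olr1, the next 10.9. In CD206pos, tumour 8 held 165 CPM of Bnip3, the next 80.3, tumour 6 held 82.7 CPM of Procr, the next 30.2, and tumour 11 held 402 CPM of Ccr2, the next 217. The calls of Retnla, Thbs1, Olr1 and Ccr2 held without the tumour named, and Bnip3 without tumour 8 had an edgeR adjusted p of 0.0718.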

How the results depend on the processing

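Called genes were mostly lower in CD206hi under every alternative run, but their number moved. Against 143 genes (17 higher, 126 lower), leaving out 1 tumour gave 52 to 298 genes called, 0 to 63 higher and 52 to 235 lower; the lowest came without tumour 6 and the highest without tumour 5. Without the tumour block, that is without the pairing, edgeR called 21 genes, 0 higher and 21 lower, all among the 143. DESeq2 called 368 (86 higher, 282 lower, 76.6% lower) and voom with quality weights 632 (211 higher, 421 lower, 66.6% lower), against 88.1% lower in the main result; both hold all 143. No filter on low counts gave 33 higher of 190, and all 15 macrophage libraries together 6 higher of 97. A limit of 2-fold left 25 genes, 0 higher. RLE factors (151), a stricter filter (150), limma on the deposited values (177) and a robust fit (148) stayed within 1.5 times. The causes were not tested. Of 82 named genes 52 were called, 26 of them also without each tumour; 38 were lost without the block, 25, 16, 14, 12 and 3 without tumours 6, 8, 11, 10 and 5, and 21 with all 15 macrophage libraries. No called named gene changed sign; 10 that were not called did. At this depth changes in genes near 3 counts were not measurable.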

Other observations

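Of the 143 called genes 98 belong to no list used here; those below were named after their values were seen. Il7r, the interleukin 7 receptor, stood at 8.64, 7.79, 7.06, 3.58 and 1.65 CPM in CD206hi and 12, 26.5, 18.6, 19.6 and 10.7 CPM in CD206pos (log2 -1.67 ± 0.30, edgeR adjusted p = 0.016). Il2rg, the shared gamma chain of interleukin receptors, and Csf2rb, the shared beta chain of the GM-CSF receptor family, averaged 115 ± 27.5 against 180.1 ± 49.1 CPM and 86.8 ± 18 against 156 ± 61.2 CPM (SD, n = 5; log2 -0.63 ± 0.13 and -0.77 ± 0.15, edgeR adjusted p = 0.0367 and 0.023). The kinase Jak2, the NF-kappaB adaptor Traf1 and the paracaspase Malt1 changed by log2 -0.99 ± 0.14, -1.57 ± 0.20 and -1.82 ± 0.25 (edgeR adjusted p = 0.00364, 0.00145 and 0.00193). Mefv, which encodes the inflammasome protein pyrin, was at 5.97 ± 3.09 against 28.1 ± 13.7 CPM (log2 -2.29 ± 0.23, edgeR adjusted p = 0.000241).

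Wnt11, a Wnt ligand, averaged 1.68 ± 0.928 against 16.2 ± 12.5 CPM and Nrg1, a ligand of ErbB receptors, 16.5 ± 10.4 against 45 ± 24.7 CPM (SD, n = 5; log2 -3.04 ± 0.39 and -1.56 ± 0.18, edgeR adjusted p = 0.0013 and 0.00061). Dcstamp, needed for fusion of osteoclasts and giant cells, stood at 39.8, 30.9, 34, 25.9 and 7.35 CPM in CD206hi and 54, 150.1, 143, 108 and 87.5 CPM in CD206pos (log2 -2.03 ± 0.31, edgeR adjusted p = 0.00561). Cytip, which binds the integrin regulator cytohesin, averaged 20.8 ± 10.3 against 113 ± 53.5 CPM (log2 -2.44 ± 0.27, edgeR adjusted p = 0.000506) and kept its call without each tumour and without the block. Tarm1 and 9830107B12Rik never exceeded 2 counts in a CD206hi library; they averaged 6.5 ± 5.73 and 7.34 ± 6.65 CPM in CD206pos. Among Il7r, Il2rg, Csf2rb, Jak2, Traf1, Malt1, Mefv, Wnt11, Nrg1 and Dcstamp, calls were lost, with edgeR adjusted p in parentheses, for Il7r, Il2rg, Csf2rb and Dcstamp without tumour 6 (0.0636 to 0.208), Il7r and Il2rg without tumour 8 (0.069 to 0.0754), Il7r, Il2rg and Csf2rb without tumour 10 (0.0688 to 0.0788), Il7r, Il2rg and Csf2rb without tumour 11 (0.0589 to 0.121), all 10 without the tumour block (0.0543 to 0.877) and Il2rg in a fit of all 15 macrophage libraries (0.0841).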
